A study of Mus musculus with 2 samples.

Results

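The heat-shock chaperones of the cytosol and of mitochondria were followed as a set of 38 genes named by symbol, and all 38 were found among the 32285 genes counted in both libraries. The set holds 12 chaperones and co-chaperones that heat shock is known to raise, called inducible here, 18 cytosolic ones that unstressed cells also make, called constitutive, and 5 of the mitochondrial matrix. The other 3 are the heat-shock factors Hsf1 and Hsf2 and the microsomal HSP70 relative Hspa13. Class was assigned by the known function of each gene, with earlier results of these data known.

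HSP70 proteins hold unfolded stretches of other proteins in a cycle that J-domain partners (the Dnaj genes) start by driving ATP hydrolysis and that nucleotide exchange factors such as Hsph1 and Bag3 complete. HSP90 proteins finish the folding of kinases and steroid receptors with the help of co-chaperones such as Stip1, Ahsa1 and Fkbp4, while the HSP60 and HSP10 rings (Hspd1 and Hspe1) enclose proteins that have been imported into mitochondria. Under proteotoxic stress the factor HSF1 binds heat-shock elements, which are inverted repeats of the unit GAA, at the inducible genes. In T cells the inducible HSP70 genes are also known to respond to activation and fever-range warmth.

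Cells carrying CD45 (on leukocytes) and CD90.2 (on T cells and part of the innate lymphocytes) were sorted from tumours. The mice were of the inbred strain C57BL/6. One single-cell library was made from animals labelled WT and 1 from animals labelled Dapl1-KO, in which the gene Dapl1 is described as deficient; both carry the same strain label and no treatment is given. The number of animals, their age, the tumour line and the part of Dapl1 that was deleted are not given in the sources used here. The question posed is what tumour T cells express when Dapl1 is missing.

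Unique molecular identifiers (UMIs) from transcript 3′ ends were counted, so that a molecule gives 1 tag whatever its length. The libraries held 154408101 and 206322042 UMIs over 16673 and 19662 barcodes, in the order WT and Dapl1-KO, which is used throughout. Of these, 13132 barcodes occurred in both libraries. The smaller copy of each was dropped, and 8991 and 10098 cells remained after filters and doublet removal, with medians of 7355 and 8463.5 UMIs. Counts of Dapl1, taken at the 3′ end, stood at 155 and 150.3 CPM (counts scaled to a total of 1000000) in naive-like T cells. With the deleted part unknown they cannot check the label, so the libraries are called by their labels. Cells with Xist or Tsix and no Y-linked UMI made up most of each gate in the library labelled WT. In the library labelled Dapl1-KO they numbered 0 to 3 a gate. The sex of the cells and the label therefore cannot be told apart beyond the values given further on.

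Cells were put into 6 marker gates: CD8 (3094 and 4440 cells), naive-like T (1980 and 1317), CD4 (407 and 460), regulatory T (618 and 715), NK (393 and 518) and innate-like T (565 and 465). The naive-like gate, set by genes such as Ccr7, Lef1 and Tcf7 without Pdcd1, was filled before the CD8 gate and admits cells with Cd8 counts. It held 238 and 259 CPM of Cd8b1 and 17.3 and 18.4 CPM of Cd4. Of the marker genes that no gate used, Gzmb and Nkg7 were highest in the CD8 gate, Satb1 and Klf2 in the naive-like, Cd40lg in the CD4, Ctla4, Il2ra and Ikzf2 in the regulatory T, Eomes in the NK and Il17a and Cd163l1 in the innate-like gate, in both libraries. Against their lists, Ccl5 was highest in NK cells, Tnfrsf4 in regulatory T cells, Il7r in innate-like T cells and Cxcr6 in CD8 cells. Icos was highest in regulatory T cells of the library labelled WT and in CD4 cells of the other. The NK-list gene Prf1 was at 262 and 348 CPM in NK cells and at 253 and 465 CPM in CD8 cells. Counts were summed per gate and library and scaled to CPM. With 1 library a label there was no test, and a member was called lower or higher where its log2 ratio was 0.32 or more in size and its level averaged at least 10 CPM over the libraries. Bracketed values are log2 ratios, Dapl1-KO over WT, followed by their exact 95% intervals. The intervals cover counting error only and are too narrow where a few cells hold many of the counts. Values over the 6 gates follow the order CD8, naive-like T, CD4, regulatory T, NK and innate-like T.

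Of the inducible genes, 3 were called lower in the library labelled Dapl1-KO in all 6 gates: the HSP70 genes Hspa1a and Hspa1b and their J-domain partner Dnajb1. Another 6 members (Hsp90aa1, Hsph1, Bag3, Dnajb4, Hspa4l and Hspd1) were called lower in 4 or 5 gates and higher in 0, and 1 member, the J-domain chaperone Dnajb6, was called higher in 5 gates and lower in 0. In 11 members no gate with an average of at least 10 CPM passed this limit: Hspa2, Hspa4, Hspa9, Hspa14, Hspbp1, Dnaja2, Dnajc7, Bag1, St13, Ptges3 and Fkbp4. The mitochondrial J-domain protein Dnaja3 was under 10 CPM in every gate and gave no call. The share of all genes called the same way in as many gates was not counted. Gates of a label share 1 library, so agreement between them is no replication. The heat map of ratios shows this division, with the inducible genes lower in the naive-like, NK and innate-like gates and the CD8 column mostly near 0.

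**Figure D1:**
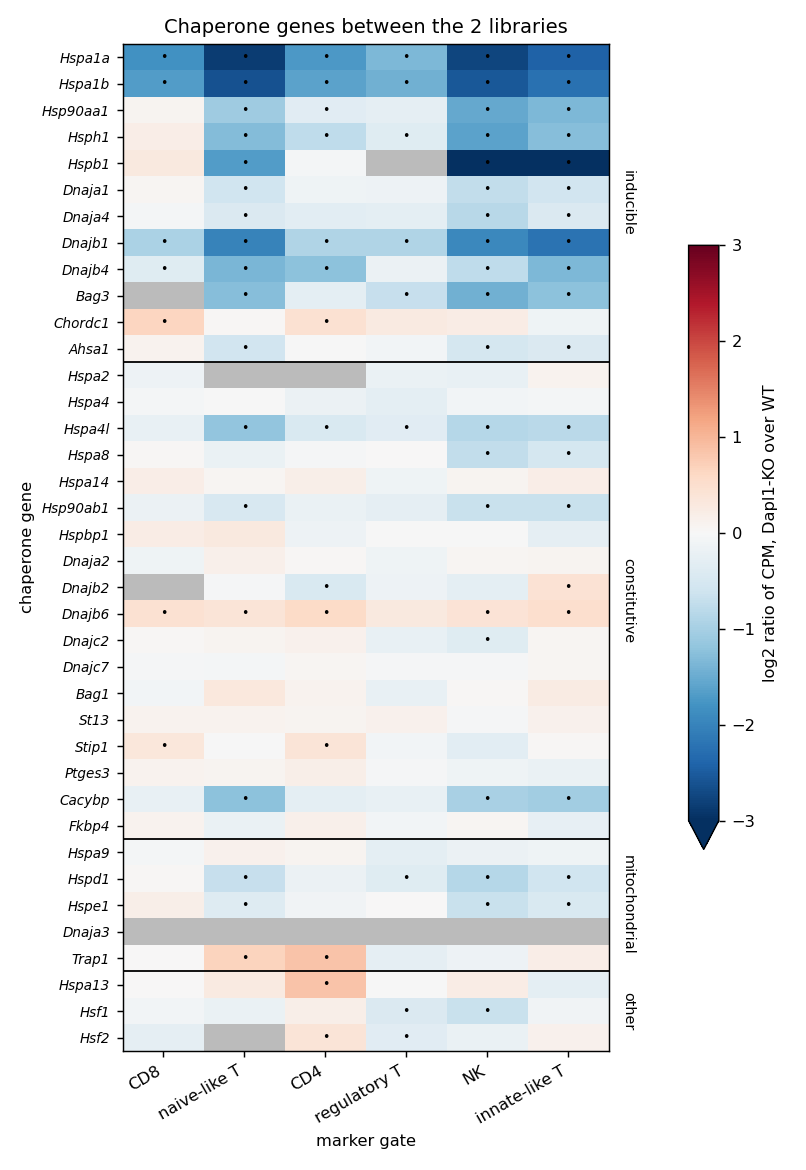
Log2 ratio, Dapl1-KO over WT, for the 38 members (lines) in the 6 gates (columns), from counts summed per gate and library; a dot marks a member past the limit of 0.32 and grey a mean level under 10 CPM. Hspa1a, Hspa1b and Dnajb1 are below 0 in every column, from -2.85 for Hspa1a in naive-like T cells to -0.91 for Dnajb1 in CD4 cells, and Dnajb6 is above 0 in every column.

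The inducible class had the most calls, and among the gates NK, innate-like and naive-like T cells did. In NK cells 11 of 12 inducible members were called lower and 0 higher, where 15.5% of all genes tested were called lower and 13.2% higher. In innate-like T cells the same count was 11 of 12 lower and 0 higher, against 20.3% and 12.8% of all genes, and in naive-like T cells it was 11 of 12 lower and 0 higher, against 15.1% and 20.6%. The share of inducible members called lower was 91.7% in each of these 3 gates. The CD4 gate had 6 of 12 lower and 1 higher (background 14.1% and 14.7%), and the regulatory T gate 5 of 11 lower and 0 higher (14% and 7.06%). The CD8 gate, which holds the most cells, had 4 of 11 lower and 1 higher, against 6.97% and 10.1% of all genes. Over all classes, 4 of 35 members tested in CD8 cells were lower and 3 higher, but as a mean over cells 9 of 37 were lower and 3 higher, against 7.17% and 12.8% of all genes on that scale. The median log2 ratio of the inducible members was 0.06, -1.28, -0.33, -0.29, -1.49 and -1.32, while that of all genes tested lay between -0.05 and 0.03. In CD8 cells that small positive median depended on the scale: it was -0.04 with doublets left in, -0.08 on CPM without mitochondrial and ribosomal protein genes and -0.32 when each cell's own CPM was averaged.

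The constitutive class had 0 to 5 lower calls a gate. Of those tested, 0 of 17 were lower in CD8 cells, 3 of 17 in naive-like T, 2 of 17 in CD4, 1 of 18 in regulatory T, 5 of 18 in NK and 4 of 18 in innate-like T cells. Higher calls numbered 2, 1, 2, 0, 1 and 2. Each of these shares lies near the share of all genes given above or under it, except for the lower calls in NK cells, at 27.8%. The median log2 ratio of the class was 0.03, 0.00, 0.06, -0.14, -0.10 and 0.05. Of the 4 mitochondrial members tested, lower calls numbered 0, 2, 0, 1, 2 and 2. Of all genes, 6.97%, 15.1%, 14.1%, 14%, 15.5% and 20.3% were called lower in these gates. In naive-like T cells the lower calls made up 50% of the mitochondrial members tested. Higher calls came from Trap1 alone, in naive-like T and CD4 cells, where 20.6% and 14.7% of all genes were called higher.

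Hspa1a (ENSMUSG00000091971) and Hspa1b (ENSMUSG00000090877), the stress-inducible cytosolic HSP70 genes, were lower by 2.56-fold or more in the library labelled Dapl1-KO in all 6 gates. Both have 1 exon and lie on the minus strand of chromosome 17, at chr17:34969190-34972156 and chr17:34956436-34959238 in GRCm38, 9951 bases apart. They encode near-identical proteins, and 58.8% of the 50-base windows of the Hspa1a transcript are also found in Hspa1b. In the last 500 bases, where 3′ tags are expected, no window is shared, but how the authors' counting treated reads that fit both is not stated, so the division between the copies is uncertain and their sum is given too.

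Hspa1a was at 409, 1912, 1362, 318, 2054 and 2612 CPM with the label WT and at 115, 265, 411, 124, 305 and 485 CPM with the label Dapl1-KO. The level was lower in the library labelled Dapl1-KO in every gate, by 3.54-fold in CD8 cells (-1.82, -1.86 to -1.79), 7.23-fold in naive-like T cells (-2.85, -2.91 to -2.80) and 2.56-fold in regulatory T cells (-1.35, -1.47 to -1.24), the smallest of the 6. Hspa1b was at 237, 1240.2, 799, 194, 1485 and 1961 CPM with the label WT and at 74.3, 202, 261, 72.1, 256 and 417 CPM with the label Dapl1-KO. Its folds were 3.19, 6.14, 3.07, 2.70, 5.80 and 4.71, in the same direction and close to those of Hspa1a. The innate-like and NK gates of the library labelled WT had the highest values of both genes, and no gate of the library labelled Dapl1-KO reached the level that the CD4, naive-like T, NK or innate-like T gates had in the library labelled WT.

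Summed over both copies, the level was 646 and 189.8 CPM in CD8 cells (-1.77, -1.79 to -1.74), 3152 and 466 CPM in naive-like T cells (-2.76, -2.80 to -2.72) and 2160.4 and 671 CPM in CD4 cells (-1.69, -1.76 to -1.62). In the other gates it was 512 and 196 CPM for regulatory T cells (-1.38, -1.47 to -1.29), 3539 and 561 CPM for NK cells (-2.66, -2.73 to -2.59) and 4573 and 901 CPM for innate-like T cells (-2.34, -2.40 to -2.28). The bar plot of summed levels sets this pair beside the constitutive and mitochondrial classes. The sum was lower in the library labelled Dapl1-KO under every alternative tried, but in CD4 cells the ratio moved from -1.69 to -1.07 with stricter gates.

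**Figure D2:**
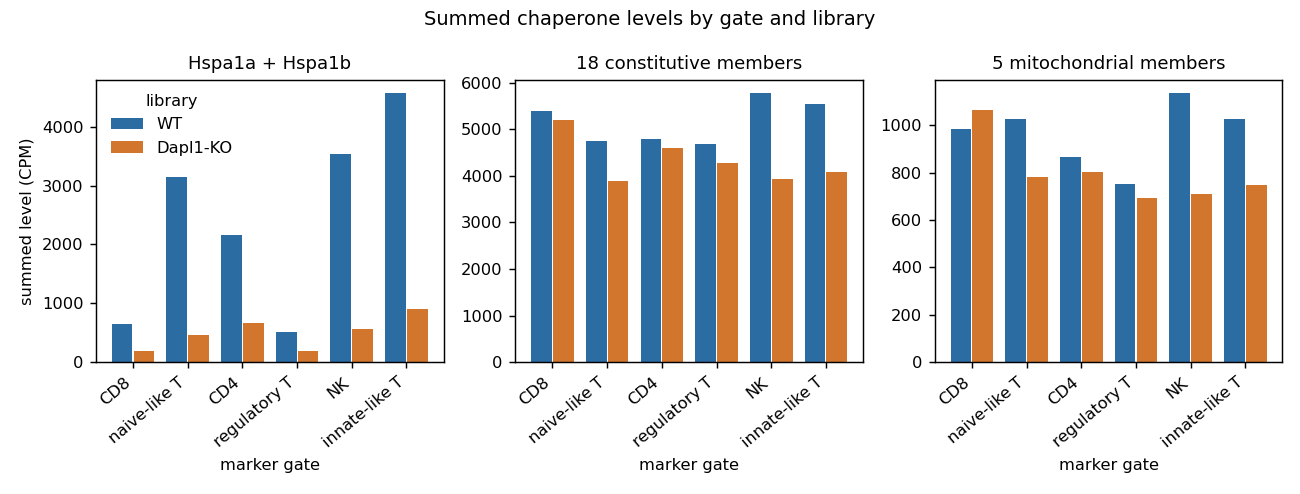
Summed level (CPM) of Hspa1a with Hspa1b, of the 18 constitutive members and of the 5 mitochondrial members in each gate and library; each bar is the summed counts of 1 library, so there is no error bar between replicates. The pair spans 512 to 4573 CPM with the label WT and 189.8 to 901 CPM with the label Dapl1-KO, while the constitutive sum stays between 3886 and 5776 CPM.

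Promoter windows from RefSeq (build GRCm38.p6, 250 bases before to 50 after the gene start) were matched for 30 of the 38 members and searched on both strands for heat-shock-element letters. A pair of units was GAANNTTC or TTCNNGAA, and a run of 3 units was GAANNTTCNNGAA or TTCNNGAANNTTC, which contains the pair. The pair occurred in 9 of 11 inducible, 2 of 14 constitutive and 2 of 4 mitochondrial members, and in 16.97% of all 27025 genes. A run of 3 units occurred in 5 members (Hsph1, Chordc1, Dnajb6, Hspd1 and Hspe1) and in 0.662% of all genes. Ahsa1 and Dnajb1 are the inducible members without these letters in the window. The windows below belong to Hspa1a and Hspa1b, whose sum is followed throughout, and to 4 members with 3-unit runs that differ in direction; capitals mark the element letters.
Hspa1a (chr17:34972107-34972406, minus strand): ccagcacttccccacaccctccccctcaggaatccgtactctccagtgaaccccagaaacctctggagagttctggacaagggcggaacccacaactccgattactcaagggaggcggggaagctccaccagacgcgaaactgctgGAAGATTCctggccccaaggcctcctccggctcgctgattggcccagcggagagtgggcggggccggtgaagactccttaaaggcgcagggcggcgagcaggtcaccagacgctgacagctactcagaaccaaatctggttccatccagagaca
Hspa1b (chr17:34959189-34959488, minus strand): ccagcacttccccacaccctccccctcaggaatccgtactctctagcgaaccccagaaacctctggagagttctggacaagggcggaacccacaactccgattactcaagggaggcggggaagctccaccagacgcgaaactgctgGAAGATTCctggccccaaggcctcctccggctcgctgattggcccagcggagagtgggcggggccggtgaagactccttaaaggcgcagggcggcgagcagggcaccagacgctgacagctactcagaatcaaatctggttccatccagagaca
Hsph1 (chr5:149636287-149636586, minus strand): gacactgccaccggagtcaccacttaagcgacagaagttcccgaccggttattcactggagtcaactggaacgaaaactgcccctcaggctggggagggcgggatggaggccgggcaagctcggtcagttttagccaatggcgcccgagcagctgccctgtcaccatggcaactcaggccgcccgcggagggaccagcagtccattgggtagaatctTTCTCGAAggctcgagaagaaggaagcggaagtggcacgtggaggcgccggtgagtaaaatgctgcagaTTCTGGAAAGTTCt
Hspe1 (chr1:55087898-55088197, plus strand): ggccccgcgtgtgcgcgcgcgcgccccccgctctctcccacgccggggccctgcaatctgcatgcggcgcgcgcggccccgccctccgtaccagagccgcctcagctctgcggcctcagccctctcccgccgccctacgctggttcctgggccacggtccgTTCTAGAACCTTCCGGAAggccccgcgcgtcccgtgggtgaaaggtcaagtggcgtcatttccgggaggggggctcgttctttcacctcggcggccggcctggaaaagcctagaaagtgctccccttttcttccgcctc
Chordc1 (chr9:18292017-18292316, plus strand): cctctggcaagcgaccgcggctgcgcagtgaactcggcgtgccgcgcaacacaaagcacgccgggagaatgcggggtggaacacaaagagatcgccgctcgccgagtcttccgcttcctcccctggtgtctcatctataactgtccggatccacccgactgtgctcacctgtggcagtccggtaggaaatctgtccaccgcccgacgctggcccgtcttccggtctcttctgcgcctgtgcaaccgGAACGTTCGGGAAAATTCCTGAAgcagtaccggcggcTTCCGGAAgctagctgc
Dnajb6 (chr5:29735648-29735947, plus strand): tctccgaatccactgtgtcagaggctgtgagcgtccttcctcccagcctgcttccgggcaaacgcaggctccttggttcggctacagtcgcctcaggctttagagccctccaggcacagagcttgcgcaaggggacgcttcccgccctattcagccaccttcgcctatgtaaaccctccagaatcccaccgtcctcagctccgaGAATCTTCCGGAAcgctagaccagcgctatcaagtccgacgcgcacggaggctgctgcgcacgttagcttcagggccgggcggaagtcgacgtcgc
The Hspa1a and Hspa1b windows are identical at 296 of 300 positions and hold the same pair 104 bases before the start, and as the next paragraphs show, members with 3-unit runs were called lower (Hsph1, Hspe1 and Hspd1) as well as higher (Chordc1 and Dnajb6). A match describes the letters only.

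Dnajb1, the J-domain protein that is induced with HSP70 and starts its ATPase cycle, followed the pair. It was at 205, 747, 383, 174, 918 and 1208 CPM with the label WT and at 105, 185, 204, 92.4, 240.0 and 262 CPM with the label Dapl1-KO. It was called lower in all 6 gates, by 4.61-fold in innate-like T cells (-2.20, -2.32 to -2.09) and by 1.95-fold in CD8 cells (-0.96, -1.001 to -0.92).

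Hsp90aa1, the stress-inducible cytosolic HSP90, was at 810.2, 1165, 1151, 899, 1902 and 1881 CPM with the label WT and at 855, 556, 909, 749, 651 and 736 CPM with the label Dapl1-KO. It was called lower in 4 gates, most in NK cells (-1.55, -1.62 to -1.48), and was within the limit in CD8 cells (0.08, 0.06 to 0.10) and regulatory T cells (-0.26, -0.32 to -0.21). The call in CD4 cells (-0.34, -0.41 to -0.27) was lost with the stricter cell filter (-0.25), with stricter gates (-0.08) and without cells that had no sex-linked UMI (-0.23). Hsph1 (HSP110), a nucleotide exchange factor for HSP70, was at 71.8, 156, 147, 66.8, 165 and 202 CPM with the label WT and at 81.9, 63.7, 86.4, 52.02, 54.7 and 83.4 CPM with the label Dapl1-KO. It was called lower in every gate except CD8, where its ratio was 0.19 from summed counts and -0.33 as a mean over cells. Its call in regulatory T cells (-0.36) was lost with all barcodes kept (-0.23), with scaling centred on the median gene (-0.31), as a mean over cells (-0.319) and without cells that had no sex-linked UMI (-0.318). For both, summed CD8 counts gave ratios just above 0, and Hsp90aa1 had -0.32 there as a mean over cells.

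Hspb1 (HSP27), a small heat-shock protein that holds unfolded proteins without ATP, was at 14.6, 75.3, 28.4, 10.04, 120.1 and 142 CPM with the label WT and at 17.9, 23.5, 27.1, 5.87, 6.67 and 17.01 CPM with the label Dapl1-KO. Its ratio in NK cells was the lowest of any member tested (-4.17, -4.82 to -3.58), but few cells carried it. The 342 counts of the library labelled WT came from 31 cells, 1 of which held 48.5% of them, and the 25 counts of the library labelled Dapl1-KO came from 4 cells, 1 of which held 88.0%. In naive-like T cells the counts were spread over more cells, 214 of 1980 and 43 of 1317, and the ratio was -1.68, -1.87 to -1.49.

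The other J-domain members of the inducible class were called lower mainly in the naive-like, NK and innate-like gates. Dnaja1, a farnesylated HSP70 partner, was at 368, 568, 556, 449, 749 and 758 CPM with the label WT and at 385, 376, 509, 406, 447 and 511 CPM with the label Dapl1-KO, with log2 ratios of 0.06, -0.59, -0.13, -0.14, -0.74 and -0.57. Dnajb4, a close relative of Dnajb1, was at 50.2, 103, 43.5, 22.8, 115 and 104 CPM with the label WT and at 39.0, 39.9, 18.6, 20.3, 67.8 and 40.7 CPM with the label Dapl1-KO. It was called lower in every gate except regulatory T, with -0.36, -0.44 to -0.29 in CD8 cells, a call lost when all deposited barcodes were kept (-0.25), and -1.37, -1.52 to -1.22 in naive-like T cells. Dnaja4 was at 13.5, 21.4, 18.1, 17.3, 26.7 and 36.1 CPM with the label WT and at 13.004, 15.8, 14.5, 14.2, 14.95 and 26.7 CPM with the label Dapl1-KO, and was called lower in the same 3 gates as Dnaja1, with the lowest ratio in NK cells (-0.84, -1.36 to -0.32). Its call in innate-like T cells (-0.43) was lost with all barcodes kept (-0.27).

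Among co-chaperones of this class, Bag3, which links HSP70 to autophagy, was at 10.7, 20.6, 17.5, 12.6, 22.5 and 21.2 CPM with the label WT and at 7.40, 8.55, 14.2, 7.78, 8.28 and 9.004 CPM with the label Dapl1-KO. It averaged under 10 CPM in CD8 cells and was called lower in 4 of the 5 gates tested, most in NK cells (-1.44, -2.11 to -0.80). Ahsa1, which activates the HSP90 ATPase, was at 72.7, 77.2, 76.3, 86.7, 86.4 and 82.2 CPM with the label WT and at 78.7, 51.5, 76.03, 82.1, 60.3 and 61.02 CPM with the label Dapl1-KO, and was called lower in naive-like T (-0.58, -0.73 to -0.44), NK and innate-like T cells. Chordc1, an HSP90 co-chaperone, went the other way where it was called. It was at 27.4, 35.5, 35.9, 36.5, 34.8 and 42.6 CPM with the label WT and at 42.6, 36.3, 49.5, 44.1, 40.8 and 38.7 CPM with the label Dapl1-KO, higher in CD8 cells by 1.55-fold (0.64, 0.55 to 0.72) and in CD4 cells by 1.38-fold (0.46, 0.10 to 0.83), where the call was lost as a mean over cells (0.28) and with all barcodes kept (0.26). It was within the limit in the other 4 gates.

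Among the constitutive members, Hspa8 (HSC70), the HSP70 that unstressed cells make, was at 1395, 1513, 1395, 1252, 2163 and 1977 CPM with the label WT and at 1440.0, 1322, 1366, 1267, 1293 and 1378 CPM with the label Dapl1-KO. The CD8, naive-like, CD4 and regulatory T gates stayed within the limit, with 0.05, 0.03 to 0.06 in CD8 cells. NK and innate-like T cells were called lower (-0.74, -0.80 to -0.69 and -0.52, -0.58 to -0.46). Hsp90ab1, the constitutive HSP90 and the most abundant member in CD8 cells, was at 2524, 1998, 2012, 2011, 2307 and 2253 CPM with the label WT and at 2219, 1425, 1742, 1671, 1454 and 1427 CPM with the label Dapl1-KO. Its interval lay below 0 in all 6 gates, and the naive-like, NK and innate-like T gates passed the limit, with log2 ratios of -0.19, -0.49, -0.21, -0.27, -0.67 and -0.66.

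Of the constitutive co-chaperones, Hspa4l and Cacybp were called lower in several gates. Hspa4l, an HSP110 relative, was at 24.9, 30.05, 38.3, 36.2, 25.6 and 32.2 CPM with the label WT and at 21.2, 13.3, 28.1, 28.8, 14.1 and 18.3 CPM with the label Dapl1-KO, and was called lower in every gate except CD8. The call was lost in CD4 cells with stricter gates (-0.16), and in regulatory T cells with the stricter cell filter (-0.30) and with centred scaling (-0.28). Cacybp, which binds the ubiquitin ligase partner SIAH1 and S100 proteins, was at 182, 283, 175, 132, 231 and 247 CPM with the label WT and at 156, 121, 144, 113, 117 and 120.0 CPM with the label Dapl1-KO, and was called lower in naive-like T (-1.22, -1.31 to -1.14), NK and innate-like T cells. Dnajb6, a J-domain chaperone that keeps aggregation-prone proteins soluble, was the exception. It was at 132, 124, 152, 124, 162 and 155 CPM with the label WT and at 182, 162, 227, 153, 214 and 219 CPM with the label Dapl1-KO, higher by 1.49-fold in CD4 cells (0.58, 0.41 to 0.75) and by 1.38-fold in CD8 cells (0.46, 0.42 to 0.50), and within the limit in regulatory T cells (0.30, 0.17 to 0.43). Stip1 (HOP), which joins HSP70 to HSP90, was at 67.9, 49.3, 48.9, 69.97, 55.1 and 47.7 CPM with the label WT and at 86.4, 48.8, 64.04, 66.6, 44.3 and 49.02 CPM with the label Dapl1-KO. It was called higher in CD8 (0.35, 0.29 to 0.41) and CD4 cells (0.39, 0.07 to 0.71). Its CD8 call was lost as a mean over cells (0.29), on CPM without mitochondrial and ribosomal protein genes (0.26) and with all barcodes kept (0.25), and its CD4 call as a mean over cells (0.16).

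The remaining constitutive members were Hspa2, Hspa4, Hspa14, Hspbp1, Dnaja2, Dnajc7, Bag1, St13, Ptges3 and Fkbp4, with 0 calls, and Dnajb2 and Dnajc2. Fkbp4 (FKBP52) and Ptges3 (p23) serve steroid receptors with HSP90, and Dnajc7 and St13 (HIP) act between HSP70 and HSP90. Hspa2, a germ-cell HSP70, averaged under 10 CPM in 2 gates. Its lowest log2 ratio, -0.86, came from such a gate and gave no call. In the other 9 uncalled members log2 ratios lay between -0.30, for Hspa4, and 0.31, for Bag1, and levels between 11.2 CPM, for Hspbp1, and 203 CPM, for Bag1. Dnajc7 had the narrowest range of log2 ratios over the gates, -0.06 to 0.06. Dnajb2 was called lower in CD4 cells (-0.45, -1.09 to 0.19) and higher in innate-like T cells (0.44, -0.11 to 0.998), at 16.8 and 15.5 CPM with the label WT, and both intervals include 0. Dnajc2, a J-domain protein bound to ribosomes, was called lower in NK cells (-0.35, -0.64 to -0.07).

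In mitochondria, the HSP60 and HSP10 genes Hspd1 and Hspe1 lie head to head on chromosome 1, at chr1:55077835-55088243 on the minus strand and chr1:55088132-55091307 on the plus strand, and overlap by 112 bases at their starts, away from the 3′ tags. Hspd1 was at 272, 228, 221, 204, 290.5 and 235 CPM with the label WT and at 279, 142, 195, 158, 162 and 156 CPM with the label Dapl1-KO. It was called lower in naive-like T (-0.69, -0.77 to -0.60), regulatory T (-0.37, -0.49 to -0.26), NK (-0.85, -1.0005 to -0.69) and innate-like T cells (-0.59, -0.76 to -0.43). The call in regulatory T cells was lost with centred scaling (-0.321) and without cells that had no sex-linked UMI (-0.321). Hspe1 was at 615, 745, 574, 469.9, 775 and 735 CPM with the label WT and at 690.1, 574, 532, 471, 488 and 538 CPM with the label Dapl1-KO, and was called lower in the same gates except regulatory T, with log2 ratios of 0.17, -0.38, -0.11, 0.00, -0.67 and -0.45. Both ratios were nearer to 0 than those of Hspa1a in every gate.

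Hspa9 (mortalin), the HSP70 of the mitochondrial matrix, was at 66.8, 36.8, 47.9, 48.8, 47.1 and 39.6 CPM with the label WT and at 64.3, 40.4, 51.1, 40.01, 41.4 and 36.3 CPM with the label Dapl1-KO, with no call in any gate and log2 ratios of -0.05, 0.13, 0.09, -0.29, -0.19 and -0.12. Trap1, the mitochondrial HSP90, was at 21.4, 10.1, 11.3, 21.6, 15.5 and 10.7 CPM with the label WT and at 21.7, 15.9, 20.5, 18.02, 13.9 and 12.3 CPM with the label Dapl1-KO, and was called higher in naive-like T (0.66, 0.35 to 0.98) and CD4 cells (0.86, 0.23 to 1.51). The factor Hsf1, which drives the heat-shock response, was at 16.9, 22.8, 16.1, 14.5, 16.9 and 23.2 CPM with the label WT and at 15.9, 19.8, 18.3, 10.8, 10.7 and 21.7 CPM with the label Dapl1-KO. It was called lower in NK cells (-0.66, -1.30 to -0.02) and regulatory T cells (-0.42, -0.87 to 0.02), the latter with an interval that includes 0 and lost with all barcodes kept (-0.23). Hsf2 was called lower in regulatory T cells and higher in CD4 cells (-0.35, -0.66 to -0.04 and 0.39, -0.20 to 0.98), and Hspa13 higher in CD4 cells (0.85, 0.30 to 1.41).

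Within each library, the gates differed more in Hspa1a and Hspa1b than in the constitutive class. In the library labelled WT the sum of Hspa1a and Hspa1b ran from innate-like T through NK, naive-like T, CD4 and CD8 to regulatory T cells, 8.93-fold from the highest to the lowest. In the library labelled Dapl1-KO the order was innate-like T, CD4, NK, naive-like T, regulatory T and CD8 cells, over 4.75-fold. Cells with more UMIs weigh more in these sums. As a mean over cells of that library, regulatory T cells, at 285 CPM, lay below CD8 cells, at 309 CPM. Innate-like T cells led in both libraries. The CD8 and regulatory T gates were the lowest pair in both, at 189.8 and 196 CPM with the label Dapl1-KO. The sum of the inducible class spanned 3.96-fold and 1.61-fold over the gates, the constitutive sum 1.23-fold and 1.34-fold, and the mitochondrial sum 1.51-fold and 1.53-fold.

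Set against CD8 cells of the same library, naive-like T cells of the library labelled WT had 11 of 12 inducible members called higher and 0 lower, where 22.6% of all genes were higher and 48.4% lower. Their summed inducible level was higher by a log2 ratio of 1.42. In the library labelled Dapl1-KO the count was 4 higher and 3 lower of 11, with backgrounds of 19.9% and 49%, and the summed ratio was 0.01. Hspa1a itself was above CD8 in the naive-like gate of both libraries, by 4.67-fold and 2.29-fold. Hsp90aa1 was above CD8 in the library labelled WT (0.52) and below it in the library labelled Dapl1-KO (-0.62), and Hsph1 likewise (1.12 and -0.36). Since the naive-like gate includes cells with Cd8 counts, these values do not set 1 lineage against another.

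The other gates were read against CD8 in the same way. In CD4 cells, 10 of 12 inducible members were higher and 0 lower in the library labelled WT, and 6 of 12 higher and 1 lower in the other, where 28.5% and 28.8% of all genes were higher. In NK cells, 11 of 12 inducible members were higher and 0 lower in the library labelled WT, and 4 of 11 higher and 4 lower in the other, where 26.4% and 25.1% of all genes were higher. In innate-like T cells, 11 of 12 inducible members were higher and 0 lower in the library labelled WT, and 5 of 11 higher and 1 lower in the other, where 30.7% and 26.7% of all genes were higher. In regulatory T cells, 2 of 12 inducible members were higher and 3 lower in the library labelled WT, and 0 of 11 higher and 3 lower in the other, where 29.6% and 24.3% of all genes were higher. Hspa1a, Hspa1b and Dnajb1 were above CD8 in the naive-like, CD4, NK and innate-like gates of both libraries. The J-domain protein Dnajb2, which carries ubiquitin-binding motifs, was above CD8 in all 5 other gates of both libraries, by log2 ratios of 0.54 to 1.32. Hspa9 and Hspbp1, an HSP70 exchange factor, were below CD8 in all 5. Of all genes, 21.1% and 23.1% were lower than CD8 in CD4 cells, 12.4% and 17.6% in regulatory T, 32.3% and 35.4% in NK and 33.5% and 36.8% in innate-like T cells.

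CD8-gated cells were divided into cycling cells (1000 and 1695, by mitosis genes), non-cycling cells with a UMI of Pdcd1, the gene of the checkpoint receptor PD-1 (1210 and 1628), and the rest, called PD-1 negative (884 and 1117). The inducible HSP70 genes were lowest in cycling and highest in PD-1 negative cells in both libraries. The sum of Hspa1a and Hspa1b was 266 and 140.5 CPM in cycling cells (-0.92, -0.97 to -0.88), 644 and 191 CPM in PD-1 positive cells (-1.75, -1.81 to -1.70) and 2756 and 557 CPM in PD-1 negative cells (-2.31, -2.36 to -2.26). PD-1 negative cells stood above cycling cells by 10.3-fold in the library labelled WT and by 3.96-fold in the library labelled Dapl1-KO, where 23% and 28.2% of all genes were called higher. Cells with a median of 30224 and 26462 UMIs made up the cycling state and of 5853 and 5264 the PD-1 negative one, so the cycling cells weigh most in the CD8 sums; the part of depth was not tested.

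Across labels, PD-1 negative CD8 cells had more calls than the CD8 gate as a whole. In them 9 of 12 inducible members were called lower and 1 higher (background 9.57% and 20.1%). Hsp90aa1 was at 1239 and 755 CPM (-0.72, -0.77 to -0.66), Hsph1 at 148 and 96.7 CPM (-0.61, -0.76 to -0.47) and Dnajb1 at 674 and 245 CPM (-1.46, -1.54 to -1.38). All 3 were called lower, as were Hspd1 (-0.37), Hspe1 (-0.35) and Cacybp (-0.82). Dnajb6 (0.66) and Chordc1 (0.58) were called higher.

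In cycling cells the class was divided, with 3 of 11 inducible members lower and 3 higher (background 8.34% and 8.14%). The pair and Dnajb1 (-0.36, -0.43 to -0.30) were lower. Hsph1, at 55.7 and 85.1 CPM (0.61, 0.53 to 0.69), Chordc1, at 29.95 and 46.5 CPM (0.64, 0.53 to 0.74), and the low Hspb1, at 6.37 and 14.3 CPM (1.17, 0.94 to 1.39), were higher. Hsph1 was thus called in opposite directions in cycling and in PD-1 negative CD8 cells. PD-1 positive cells had 4 of 11 lower and 2 higher (background 8.83% and 13.2%). The bar plot of CD8 states shows the constitutive sum nearly level across labels, at 5915 and 5701 CPM in cycling, 4442 and 4169.5 in PD-1 positive and 4910.4 and 4244 in PD-1 negative cells. Stip1, Hspa9 and Trap1 were lower in both non-cycling states than in cycling cells of the same library, by log2 ratios of -1.05, -1.06 and -0.79 for Trap1, Hspa9 and Stip1 in PD-1 negative cells of the library labelled WT, where 42.4% of all genes were called lower (38.8% in the library labelled Dapl1-KO).

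**Figure D3:**
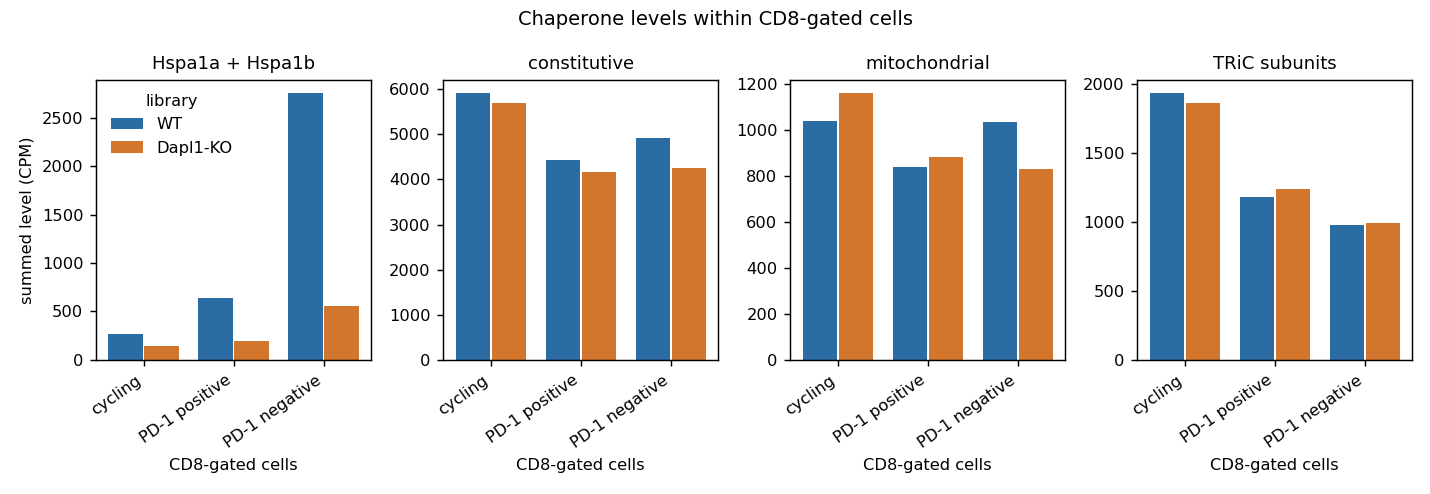
Summed level (CPM) of Hspa1a with Hspa1b, of the constitutive and mitochondrial members and of the cytosolic chaperonin TRiC in cycling, PD-1 positive and PD-1 negative CD8-gated cells of each library; bars are single libraries without replicates. The pair goes from 266 CPM in cycling to 2756 CPM in PD-1 negative cells labelled WT, and from 140.5 to 557 CPM in those labelled Dapl1-KO, while TRiC goes the other way, from 1932 to 977 CPM and from 1862 to 991 CPM.

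The difference in Hspa1a and Hspa1b lay both in how many cells held a UMI and in how many each held. After each cell was thinned to 3000 UMIs, with shallower cells left out (102 and 147 of the CD8 gate, 15 and 9 of the NK gate), a UMI of either copy was found in 34.7% and 14.3% of CD8 cells, with exact 95% intervals of 32.95 to 36.4% and 13.3 to 15.4%. In naive-like T cells the shares were 69.7% and 22.4%, in CD4 45.8% and 22.1%, in regulatory T 27.6% and 13.1%, in NK 65.3% and 19.1% and in innate-like T cells 70.2% and 26.8%. Without thinning the whole gates, shallower cells included, gave 56.6% and 27.6% for CD8 and 78.7% and 31.4% for naive-like T cells. Each gate had a smaller share in the library labelled Dapl1-KO, with intervals apart in each gate. No lymphocyte type is known to lack these genes, so no background share from free RNA can be set beside them.

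Cells rich in the transcripts were rarer still. At least 20 UMIs of the 3000 were found in 18.7% and 1.76% of naive-like T cells, 25.7% and 2.75% of NK cells, 27.9% and 5.86% of innate-like T cells and 6.92% and 1.07% of CD8 cells. In naive-like T cells, where 69.7% and 22.4% held any UMI of the pair, the 10% of cells with the most held 45.7% and 86.3% of its UMIs. In CD8 cells that share was 77.4% and 94.9%. Hspa8, its constitutive relative, was found in 92.0% to 97.0% of thinned cells in every gate and library, and Dnajb1 in 63.2% and 36.3% of NK cells and 37.97% and 27.5% of CD8 cells.

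**Figure D4:**
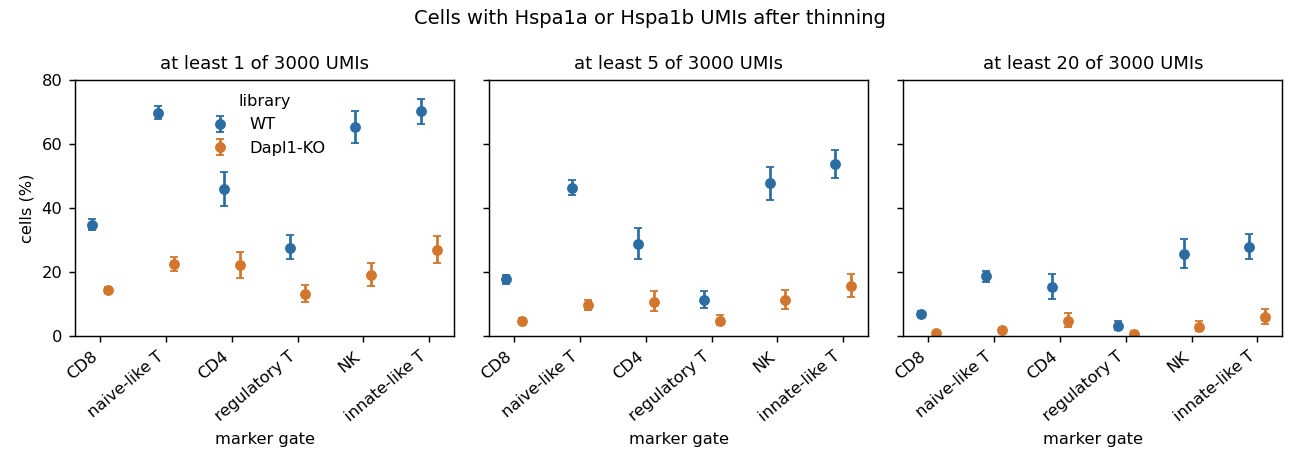
Percent of cells in each gate with at least 1, 5 or 20 UMIs of Hspa1a or Hspa1b among 3000 UMIs per cell, by library; bars are exact 95% intervals that cover counting error only. The share at 1 UMI runs from 27.6% to 70.2% in the library labelled WT and from 13.1% to 26.8% in the library labelled Dapl1-KO.

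Across single thinned cells of a gate, the rank correlation (Spearman) of other members with the sum of Hspa1a and Hspa1b was highest for Dnajb1 or Hsp90aa1 in every gate of both libraries. Ranges over the 6 gates follow, the library labelled WT first. For Hsp90aa1 it was 0.32 to 0.63 and 0.24 to 0.45. For Dnajb1 it was 0.25 to 0.64 and 0.16 to 0.48. Hsph1 had 0.27 to 0.44 and 0.19 to 0.36, and Hspa8, though constitutive, had 0.28 to 0.59 and 0.14 to 0.30. Dnajb6, the member called higher in 5 gates, had values near 0, -0.06 to 0.04 and -0.12 to 0.02. These are descriptions over 2992 and 4293 CD8 cells and fewer in other gates, which share a library, its handling and its free RNA. The cell's UMI total had -0.31 to -0.05 and -0.14 to -0.04, and its mitochondrial percentage 0.06 to 0.20 and -0.02 to 0.12.

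**Figure D5:**
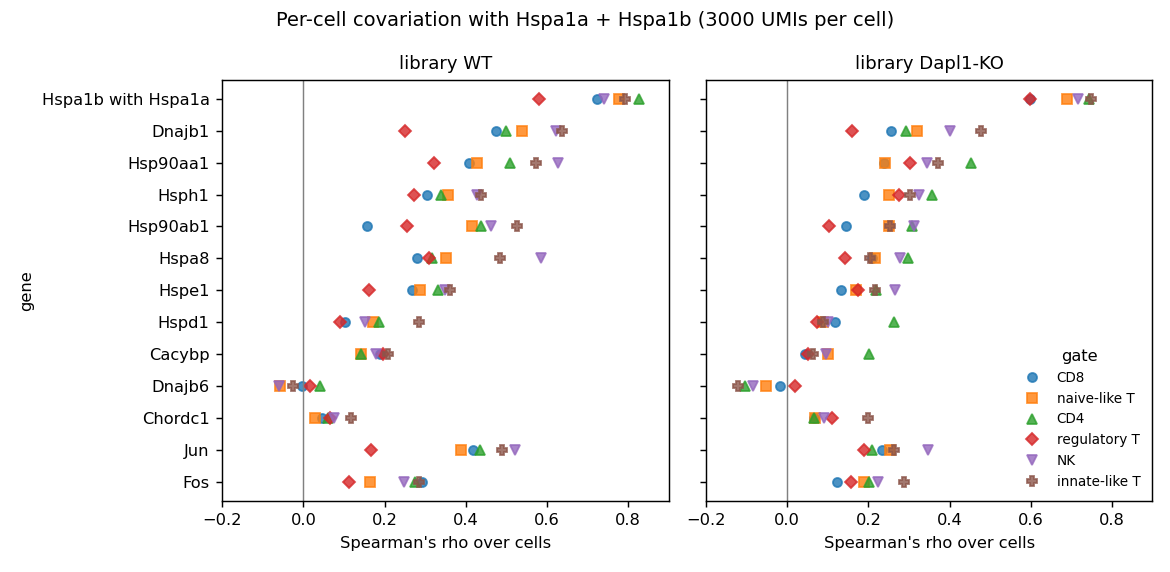
Spearman correlation across thinned cells between the sum of Hspa1a and Hspa1b and each gene shown, 1 mark per gate, with 1 panel per library; cells of a gate share their library. Apart from the pair itself, Dnajb1 or Hsp90aa1 is the highest member in every gate, and Dnajb6 lies near 0.

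Other folding genes, taken from lists of function, were read in the same gates, where 6.97%, 15.1%, 14.1%, 14%, 15.5% and 20.3% of all genes were called lower and 10.1%, 20.6%, 14.7%, 7.06%, 13.2% and 12.8% higher. The 8 subunits of TRiC, the chaperonin that folds actin and tubulin, had 0 lower calls in all 6 gates and 0, 1, 1, 0, 0 and 0 higher ones, and the 6 subunits of its partner prefoldin had 0 lower calls and 1, 3, 1, 1, 0 and 2 higher ones. Among 8 chaperones of the endoplasmic reticulum, which answer to the unfolded protein response rather than to HSF1, 0 were lower in any gate and higher calls were 4 of 8, 4 of 7, 4 of 8, 0 of 8, 3 of 8 and 2 of 8. Hsp90b1 (GRP94), the HSP90 of that compartment, was at 393 and 557 CPM in CD8 cells, a log2 ratio of 0.50, and Sdf2l1 there had 0.63. Of 6 mitochondrial proteases and exchange factors, 6, 4, 6, 6, 6 and 6 were tested, 0, 0, 0, 2, 1 and 0 were lower and 0, 1, 1, 0, 0 and 3 higher. Of 13 other cytosolic co-chaperones, 10 were tested in each gate, 1, 1, 1, 1, 1 and 2 were lower and 1, 3, 1, 0, 1 and 0 higher. Fkbp5 was lower in all 6 gates, at 31.7 and 15.01 CPM in CD8 cells (-1.08) and with -1.74 in regulatory T cells. Fkbp5 is an HSP90 partner that glucocorticoid hormone is known to raise. These genes were named after their values had been seen.

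Immediate-early genes, which cell dissociation is known to raise together with the inducible chaperones, were also called lower in some gates. Of 12 such genes, those lower in the library labelled Dapl1-KO numbered 4 of 11, 11 of 12, 2 of 12, 5 of 11, 4 of 12 and 6 of 12, and those higher 2, 0, 1, 0, 2 and 0. Of all genes, 6.97%, 15.1%, 14.1%, 14%, 15.5% and 20.3% were lower in these gates, so that the share in CD4 cells lay near that of all genes. Their medians were -0.30, -0.52, 0.09, -0.24, -0.03 and -0.34. Jun was lower in every gate, at 161 and 98.6 CPM in CD8 cells (-0.71) and 1151 and 552 CPM in innate-like T cells (-1.06), and its correlation with the pair over cells was 0.17 to 0.52 and 0.19 to 0.35. The median of the immediate-early list was near 0 in CD4 and NK cells, though in NK cells 4 of 12 were lower and 2 higher. The part of sample handling in the chaperone difference was not tested.

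Sex-linked transcripts and the kind of barcode were read beside the pair. Where Y-linked UMIs were present and Xist and Tsix absent, the summed level was 551 CPM in 415 CD8 cells of the library labelled WT and 166 CPM in 3319 of the library labelled Dapl1-KO, and 3297 and 437 CPM in 317 and 869 naive-like T cells. The log2 ratios, -1.73 and -2.91, are close to those of the whole gates. In Y-linked CD8 cells 14 of 35 members were called higher and 6 lower, against 3 and 4 in all CD8 cells. Of all genes tested in the Y-linked cells, 22.9% were called higher and 16.7% lower. In the other 4 gates the library labelled WT had under 50 such cells and no value is given. By kind of barcode, CD8 cells found in 1 library only held 1789 and 306 CPM of the pair, and larger copies of shared barcodes 506 and 161 CPM. In both kinds and in all 6 gates the level was lower in the library labelled Dapl1-KO.

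Cells outside the gates gave the same direction for the leading genes. In the 1653 and 1644 cells that fitted no gate, the pair was at 1313 and 329 CPM (-2.00, -2.04 to -1.96), and 7 of 12 inducible members were lower and 1 higher (background 8.76% and 7.25%). In the 281 and 539 cells with myeloid, melanocytic or B cell markers, the pair was at 1122 and 544 CPM (-1.04, -1.08 to -1.004). There Hspe1 (0.56, 0.51 to 0.60) and Hspd1 (0.41, 0.36 to 0.47) were called higher with the Dapl1-KO label, which they were in none of the 6 gates, and so was Fkbp4 (0.66, 0.58 to 0.75), where 11.2% of all genes were called higher.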

How the data were processed

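The authors deposited UMI counts, whole numbers without normalization, for 2 libraries of 10x 3′ version 3 chemistry, per the labels. Cell Ranger 5.0.0 and the builds mm10 and GRCm38 are named in the submitters' processing notes. Of 13132 barcodes in both libraries the smaller copy was dropped, and both copies where neither had 2 times the UMIs of the other (21 barcodes). Cells under 500 genes or over 10% mitochondrial counts were dropped. Scrublet's automatic threshold called 1 and 2 cells, so the highest scores were removed at 0.8% per 1000 cells (874 and 1058 cells).

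Gates used UMIs of lineage genes, and gate totals ran from 2846833 to 77744309 UMIs. CPM, log2 ratios with exact binomial intervals, and Clopper-Pearson intervals for shares of cells at 3000 UMIs were computed. No test was run. Values are given in full for 11 core members and for any member past the limit in CD8 cells or the same way in 2 or more gates, and by range and count for the rest. Members, lists and rules were chosen with earlier results of these data known. The ratio calculation was tested on simulated counts. Python 3.11.15, numpy 2.4.6, scipy 1.17.1, pandas 2.3.3, scanpy 1.11.5 and matplotlib 3.10.9 were used. Alternatives covered barcodes, doublets, cell filters, gates, scaling, sex-linked cells, cell averaging, the fold limit and the minimum level.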

Additional observations from a re-analysis of the deposited data

Results flagged for a closer look

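For 8 members the library labelled Dapl1-KO lay below the library labelled WT past the limit in 2 to 5 gates. In the CD8 gate it lay above the library labelled WT, with an interval over 0. For each member 1 of the lower gates is set beside CD8 here. The difference between gates was not tested, since each label has 1 library. Between NK and CD8 cells the log2 ratios were -1.55 and 0.078 for Hsp90aa1, -1.60 and 0.19 for Hsph1, and -4.17 and 0.29 for Hspb1. The J-domain protein Dnaja1 had -0.74 and 0.064, and the constitutive HSP70 Hspa8 had -0.74 and 0.046. The mitochondrial chaperonin genes showed it too, with -0.85 and 0.040 for Hspd1 and -0.67 and 0.17 for Hspe1. For Ahsa1 the gates were naive-like T and CD8, with -0.58 and 0.12. The CD8 values above 0 are small and moved both ways under other choices. As a mean over cells all 8 lay below 0 in CD8 cells, from -0.33 to -0.04. In Y-linked CD8 cells Hsp90aa1 (0.42), Hspd1 (0.47), Hspe1 (0.34) and Hspb1 (0.38) passed the limit upward, where 22.9% of all genes were called higher. There Hsph1, Hspa8 and Ahsa1 stayed above 0 within the limit, and Dnaja1 was at -0.05. In NK cells 1 cell of the library labelled WT held 48.5% of the Hspb1 counts.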

How the results depend on the processing

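Each alternative changed 1 choice, except that the stricter cell filter changed the gene minimum and the mitochondrial limit together. The summed level of Hspa1a and Hspa1b was lower in the library labelled Dapl1-KO in every gate under every alternative that gave a value. Its log2 ratio moved outside its counting interval as follows. Keeping all barcodes gave -1.42 (CD8), -2.46 (naive-like T), -1.15 (regulatory T), -2.09 (NK) and -1.88 (innate-like T). Leaving doublets in gave -1.90 (CD8) and -1.56 (regulatory T), and the stricter cell filter -2.70 (naive-like T) and -1.52 (CD4). Stricter gates gave -1.66 (CD8), -1.07 (CD4) and -1.03 (regulatory T), and CPM without mitochondrial and ribosomal protein genes -1.85 (CD8) and -2.80 (naive-like T). Y-linked cells alone gave -1.73 (CD8) and -2.91 (naive-like T), the other gates having too few. The mean over cells gave -2.19 (CD8), -2.62 (naive-like T), -1.94 (CD4) and -1.20 (regulatory T). Leaving out cells with no sex-linked UMI, chosen after seeing the data, gave -1.88 (CD8), -2.81 (naive-like T), -1.48 (CD4), -1.66 (regulatory T) and -2.70 (innate-like T).

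In CD8 cells the inducible median of 0.06 became -0.042 with doublets, 0.093 with stricter gates, -0.081 on CPM without mitochondrial and ribosomal protein genes, -0.32 as a mean over cells and 0.0069 with no minimum level. The constitutive median of 0.03 became -0.092 on that CPM scale and 0.26 in Y-linked cells. The 4 members called lower became 9 as a mean over cells, and the 3 called higher became 14 in Y-linked cells and 1 at a fold limit of 1.5. The inducible level of naive-like T over CD8 cells, 1.42 in the library labelled WT, became 1.48 with all barcodes, 1.34 with doublets, 1.43 with the stricter cell filter, 1.51 with stricter gates, 1.67 on that CPM scale, 1.68 in Y-linked cells, 0.89 as a mean over cells and 1.44 without cells lacking sex-linked UMIs. In the library labelled Dapl1-KO it was 0.01 and became 0.14 with all barcodes and 0.30 on that CPM scale. Of 1150 single-member values, 926 stayed within their interval, and 68 had the other sign than reported. In 67 of these the reported ratio was within the limit, and in 1 it was past it: Hspb1 in regulatory T cells, under 10 CPM on average, went from -0.77 to 0.32 with stricter gates. The cause was not tested. No paired analysis was possible because each label has 1 library, which also leaves no replicate to leave out. The CD4, NK and innate-like T gates held the fewest UMIs, which limits their low members most.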
